A study of Mus musculus with 4 samples.

Results

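Gata4 peaks were examined at the genes of the GATA transcription factors, *Gata1* to *Gata6*, and of their zinc finger cofactors, *Zfpm1* and *Zfpm2*. These 8 genes of 22238 protein-coding genes were taken by name, with earlier results of these data known. A peak was counted for a gene when it lay within 5 kb of the gene, the distance up to which the deposited lists name a gene, and then more widely when it lay within 50 kb of the gene by mm9 coordinates. Of 20410 peaks in the WT list, 53 lay within 50 kb of one of these genes, and of 22733 peaks in the DKO list, 58 did.

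Chromatin bound by Gata4 was sequenced (ChIP-seq) in 4 libraries of J1 mouse cells (129 background), 1 library per condition, with a mixture of 3 anti-Gata4 antibodies. WT cells (clone J1G4.2 by the label of the mesoderm library, a name the study's text gives differently) were compared with DKO cells (clone 16G4.3, genotype *Dnmt3a*-/-*Dnmt3b*-/-), which lack both enzymes of *de novo* DNA methylation. All cells stably expressed Gata4GR, in which Gata4 is joined to a glucocorticoid receptor domain so that dexamethasone (Dex) brings it into action, under the ubiquitously active CAG promoter. For the WT Flk1(+) library and the DKO Flk1(+) library, mesoderm cells were sorted with magnetic beads for the surface receptor Flk1 at day 4.5 of co-culture on OP9 stroma, after 3 hr of 100 nM Dex. Undifferentiated ES cells of each genotype, not given Dex, made up the WT ES and DKO ES libraries and served as the backgrounds against which the authors called peaks. Each mesoderm genotype was thus a single clone, and Gata4GR and the cells' own Gata4 cannot be told apart in the lists. The lists hold no expression values, so the sorted cells could not be checked by marker genes, and neither the depth of the libraries nor whether the heights were scaled for it is given in them. No condition had a replicate, so the values describe single libraries, no difference between the lists was tested, and 95% exact (Clopper-Pearson) intervals of shares cover counting error only.

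GATA factors are zinc finger proteins that bind the core sequence GATA, and Gata1, Gata2 and Gata3 are best known from blood cells, Gata4, Gata5 and Gata6 from heart and endoderm. The Zfpm proteins, also called Friend of GATA, do not need to bind DNA themselves: they attach to the amino-terminal zinc finger of a GATA factor and recruit corepressors or coactivators. GATA factors commonly occupy one another's genes and their own, and Flk1(+) mesoderm gives rise to blood, endothelial and cardiac cells, in which several of these genes act.

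The WT list had a peak within 5 kb of 6 of the 8 genes and the DKO list of 7 of the 8, where 39.4% of all protein-coding genes had a WT peak and 49.1% a DKO peak at this distance. Within 50 kb, each list had a peak at 8 of the 8 genes, against 67.1% (WT) and 70.4% (DKO) of all protein-coding genes. The peaks were spread very unevenly. *Zfpm1* alone had 19 WT and 25 DKO peaks within 5 kb, *Zfpm2* had 7 and 5, *Gata6* had 3 and 7, and *Gata2* had 3 and 6. *Gata3* and *Gata4* had 1 peak in each list, *Gata1* had 0 WT and 1 DKO peak, and *Gata5* had none in either. The deposited lists name the same numbers for each gene except *Gata2*, which they name for 1 WT and 4 DKO peaks, leaving out those upstream of its first start. Within 50 kb the counts were 4 and 8 at *Gata2*, 7 and 7 at *Gata6*, 4 and 1 at *Gata3*, 3 and 1 at *Gata5*, 3 and 3 at *Gata4*, 2 and 2 at *Gata1*, 23 and 31 at *Zfpm1*, and 7 and 5 at *Zfpm2*. The list with more peaks thus depended on the distance at *Gata1*, *Gata3*, *Gata5* and *Gata6*, and no replicate was at hand by which to judge these differences.

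A peak is given by its position, its height in the authors' profile of the Flk1(+) library, its height in the matching ES library (the ES height), and its rank in the list, with 1 the best. Ranks follow the q-values of their own list, and as the lists differ in size and the libraries in depth, they do not compare the genotypes. The deposited sequence window around each position was searched on both strands for AGATAA or TGATAA (together WGATAA), and their CpGs were counted. The motif WGATAA occurred in 61.9% of all WT windows and 38.1% of all DKO windows, and the median window held 8 (WT) and 21 (DKO) CpGs. Peaks of the 2 lists were called shared when their windows overlapped by at least 1 bp, which held for 45.6% of all WT and 45.1% of all DKO peaks. Where a list has no peak, its signal at that place is not known here, since it may lie under the authors' calling threshold.

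*Gata1*, which directs red blood cell and megakaryocyte formation, lies on the minus strand of chromosome X from 7536386 to 7555197. The DKO list had a single peak within 5 kb, at 7543434 in intron 1, 1602 bp downstream of the transcription start at 7545036. Its height was 7.73 against an ES height of 1.35, it ranked 3576, and its window held 5 CpGs and 4 WGATAA matches, the nearest centred 4 bp from the peak position. All 4 matches lie in the 121 bases around the position, with WGATAA or its reverse complement in capitals here and in the sequences of the other peaks unless another mark is named; where a window held more matches than are marked, the others lay outside the printed stretch.
Gata1 DKO peak at 7543434, chrX:7543374-7543494, plus strand: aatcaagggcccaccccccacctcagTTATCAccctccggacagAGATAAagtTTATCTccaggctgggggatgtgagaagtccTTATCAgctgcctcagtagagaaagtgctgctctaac

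The WT list had no peak at this place, and its nearest peak to *Gata1*, at 7529318, lay 7068 bp downstream of the gene and 14116 bp from the DKO peak. The highest WT peak within 50 kb, at 7529066, had a height of 7.25 and an ES height of 1.39, ranked 6483, held no WGATAA and 9 CpGs, and lay 4051 bp from *Hdac6*. The other DKO peak within 50 kb was at 7604910 with a height of 5.25. No peak near *Gata1* was shared.

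*Gata2*, which is needed for blood stem cells and early progenitors, lies on the plus strand of chromosome 6 from 88143885 to 88157024 and has starts at 88143885 and 88148658. The windows around these starts hold 52 and 50 CpGs and no WGATAA. Both lists had a peak 4.07 kb (WT) and 4.08 kb (DKO) upstream of the first start, at 88139818 in WT and 88139805 in DKO. Its height was 21.1 in WT Flk1(+) and 15.6 in DKO Flk1(+) cells, against ES heights of 4.97 and 3.15, and it ranked 4546 and 3168. Each window held 50 CpGs and no WGATAA. Both lists also had a peak at the second start, at 88148602 in WT (56 bp upstream) and 88148805 in DKO (147 bp downstream), with heights of 5.86 and 7.53 and ES heights of 1.42 and 1.36. These ranked 11486 and 3944, held 47 and 46 CpGs, and held no WGATAA. The shared peaks within 5 kb of *Gata2* thus lay in CpG-rich sequence without WGATAA. With WGATAR, in which the last base is A or G, the upstream peak held 2 matches in each list.

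The peaks of a single list at *Gata2* were of another kind in part. The WT peak at 88141898, 1987 bp upstream of the first start, had a height of 8.82 and an ES height of 2.07, ranked 12448, and held 4 CpGs and 2 WGATAA matches. The DKO peak at 88140788, 3097 bp upstream, had a height of 7.37 and an ES height of 2.23, ranked 20017, and held 38 CpGs and 4 matches, the nearest 10 bp from its position. In intron 4, 9292 bp downstream of the first start, the DKO peak at 88153177 had a height of 6.76 and an ES height of 0.574, ranked 5885, and held 17 CpGs and 1 match. Intron 4 of *Gata2* is known for an enhancer in which an E-box and a GATA motif stand side by side. The deposited window held such a pair, CANNTG followed after 7 or 8 bases by WGATAA on either strand, which occurred in 0.985% of all DKO windows and 1.72% of all WT windows. The pair with the bases between is in capitals in the last of these sequences.
Gata2 DKO peak at 88140788, chr6:88140678-88140918, plus strand: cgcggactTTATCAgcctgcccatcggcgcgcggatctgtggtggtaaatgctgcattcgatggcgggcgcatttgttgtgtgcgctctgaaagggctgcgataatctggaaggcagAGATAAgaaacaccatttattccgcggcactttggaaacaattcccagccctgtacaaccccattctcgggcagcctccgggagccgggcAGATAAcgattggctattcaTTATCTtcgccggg
Gata2 DKO peak at 88153177, chr6:88153117-88153237, plus strand: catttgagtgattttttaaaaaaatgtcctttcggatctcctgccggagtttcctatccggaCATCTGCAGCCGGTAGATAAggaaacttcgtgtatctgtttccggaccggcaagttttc

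The DKO list had 2 further peaks, at 88149306 in intron 1 and 88150260 in coding exon 3, with heights of 5.31 and 5.27, ES heights of 0.831 and 0.713, ranks of 14341 and 14726, 22 and 21 CpGs and no WGATAA. The highest WT peak within 50 kb was shared and lay 19594 bp downstream of the gene at 88176618, 3368 bp from *Dnajb8*, with the DKO peak at 88176600. Its height was 21.7 in WT and 9.72 in DKO, the ES heights were 4.34 and 1.79, and the ranks 3303 and 5376. Both windows held 5 CpGs and 2 WGATAA matches, and the sequence around the WT position shows those 2 matches. The remaining DKO peak, at 88199806, had a height of 5.40.
Gata2 WT peak at 88176618, chr6:88176538-88176678, plus strand: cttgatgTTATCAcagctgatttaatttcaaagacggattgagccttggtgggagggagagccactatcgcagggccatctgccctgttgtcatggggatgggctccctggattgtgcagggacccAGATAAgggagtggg

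*Gata3*, a regulator of T cells and of several epithelia, lies on the minus strand of chromosome 2 from 9778705 to 9811661. The WT list had 1 peak within 5 kb, at 9790550 in intron 3, with a height of 8.37, an ES height of 2.74 and a rank of 19158, which is near the end of the list. It held 12 CpGs and 3 WGATAA matches, the nearest centred 3 bp from its position.
Gata3 WT peak at 9790550, chr2:9790535-9790610, plus strand: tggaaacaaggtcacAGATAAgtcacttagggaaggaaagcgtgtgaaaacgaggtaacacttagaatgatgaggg

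In the DKO list the only peak near *Gata3* was at 9801289, in intron 1 and 1062 bp upstream of the start at 9800227, with a height of 6.20, an ES height of 1.07 and a rank of 8071. It held 25 CpGs and no WGATAA and lay 10739 bp from the WT peak, so that neither was shared. Within 50 kb the WT list had 3 more peaks, with heights from 6.01 to 7.57, and the DKO list none.

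*Gata4*, the gene of the factor itself, lies on the minus strand of chromosome 14 from 63817759 to 63890529 and has 3 starts close together, at 63864085, 63864097 and 63864108, and others farther off. The WT list had 1 peak within 5 kb, at 63864985, 877 to 900 bp upstream of these 3 starts and in intron 1 of a longer transcript. Its height was 8.08 and its ES height 1.41, it ranked 4808, and it held 17 CpGs and 1 WGATAA match 66 bp from its position. The only DKO peak within 5 kb was at 63850127, in intron 2 and 13958 bp downstream of the start at 63864085, with a height of 7.46, an ES height of 1.99 and a rank of 18363. It held 13 CpGs and 5 matches, a number that 0.598% of all DKO windows reached or passed. The WT peak was thus nearer a start, and the DKO peak held more copies of the motif.
Gata4 DKO peak at 63850127, chr14:63850017-63850207, plus strand: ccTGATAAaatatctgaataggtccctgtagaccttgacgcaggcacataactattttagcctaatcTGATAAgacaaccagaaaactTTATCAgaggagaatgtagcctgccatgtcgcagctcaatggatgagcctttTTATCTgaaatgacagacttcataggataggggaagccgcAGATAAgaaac

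Gata4GR carries the coding sequence of *Gata4*, and no window of either list within 50 kb overlapped a coding exon of the gene. The shared peak within 50 kb lay 20707 bp (WT) and 20900 bp (DKO) downstream, at 63797052 and 63796859, next to *Fdft1*, a gene of sterol synthesis. Its height was 9.33 in WT and 17.1 in DKO, with ES heights of 2.56 and 1.87, ranks of 15669 and 738, 34 and 46 CpGs, and 1 and 0 WGATAA matches. These were the highest peaks of both lists within 50 kb of *Gata4*. The others were a WT peak at 63924910 with a height of 5.42 and one of the DKO list at 63902676, 6.05 high.

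*Gata5*, which acts in heart and gut, lies on the minus strand of chromosome 2 from 180059838 to 180069404, and the nearest peaks lay 12748 bp (WT) and 20357 bp (DKO) from it. The peak shared by both lists was upstream, at 180089789 in WT and 180089761 in DKO, and had a height of 11.3 in WT and 7.97 in DKO. The ES heights were 3.10 and 0.640, and the peak ranked 12858 (WT) and 3194 (DKO). The windows held 10 and 9 CpGs and 2 and 3 WGATAA matches. The height was higher in WT in both kinds of cells. The WT list had 2 more peaks within 50 kb, at 180082152 and 180010838, with heights of 8.17 and 7.80.
Gata5 WT peak at 180089789, chr2:180089729-180089849, plus strand: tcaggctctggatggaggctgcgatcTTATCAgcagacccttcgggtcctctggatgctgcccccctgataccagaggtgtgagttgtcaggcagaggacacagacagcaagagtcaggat

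*Gata6*, a gene of primitive endoderm and heart, lies on the plus strand of chromosome 18 from 11052508 to 11085633, and the window around its start holds 35 CpGs and no WGATAA. Most of its peaks within 5 kb gathered at the start. A shared peak just upstream, at 11052202 in WT and 11052237 in DKO, had heights of 11.8 and 7.72, ES heights of 2.24 and 2.32, and ranks of 6141 and 19614, with 24 CpGs and no WGATAA in each window. In intron 1 the WT peak at 11053286 (height 6.67, ES height 1.87, rank 18861, 20 CpGs, 1 match) overlapped DKO peaks at 11053217 and 11052999. The DKO peak at 11053217 had a height of 6.06, an ES height of 1.01, a rank of 8812, 20 CpGs and 1 match. The DKO peak at 11052999 had a height of 9.40, an ES height of 1.39, a rank of 1776, 22 CpGs and 4 matches. The start of *Gata6* was occupied in both lists, with the higher peak upstream of it in WT and downstream of it in DKO.

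The highest *Gata6* peak within 5 kb was shared and lay in intron 6, at 11078231 in WT and 11078237 in DKO. Its height was 21.2 in WT and 12.3 in DKO, with ES heights of 3.99 and 2.29 and ranks of 3049 and 3726, and each window held 4 CpGs and 2 WGATAA matches. The DKO list had 3 further peaks within 5 kb, at 11048511, 11051517 and 11054959. Their heights were 6.28, 7.0 and 6.42, their ES heights 1.87, 1.87 and 1.61, and their ranks 20889, 18813 and 7103. They held 36, 19 and 58 CpGs and 1, 3 and 0 WGATAA matches, and the last of them lay in coding exon 2. Beyond 5 kb only the WT list had peaks, 4 in number with heights from 5.53 to 14.9. The highest of them, at 11097469 and 11836 bp downstream of the gene, ranked 906, held 4 CpGs and had 2 WGATAA matches, the nearer 1 bp from its position, and the nearest DKO peak lay 19232 bp away.

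**Figure D1:**
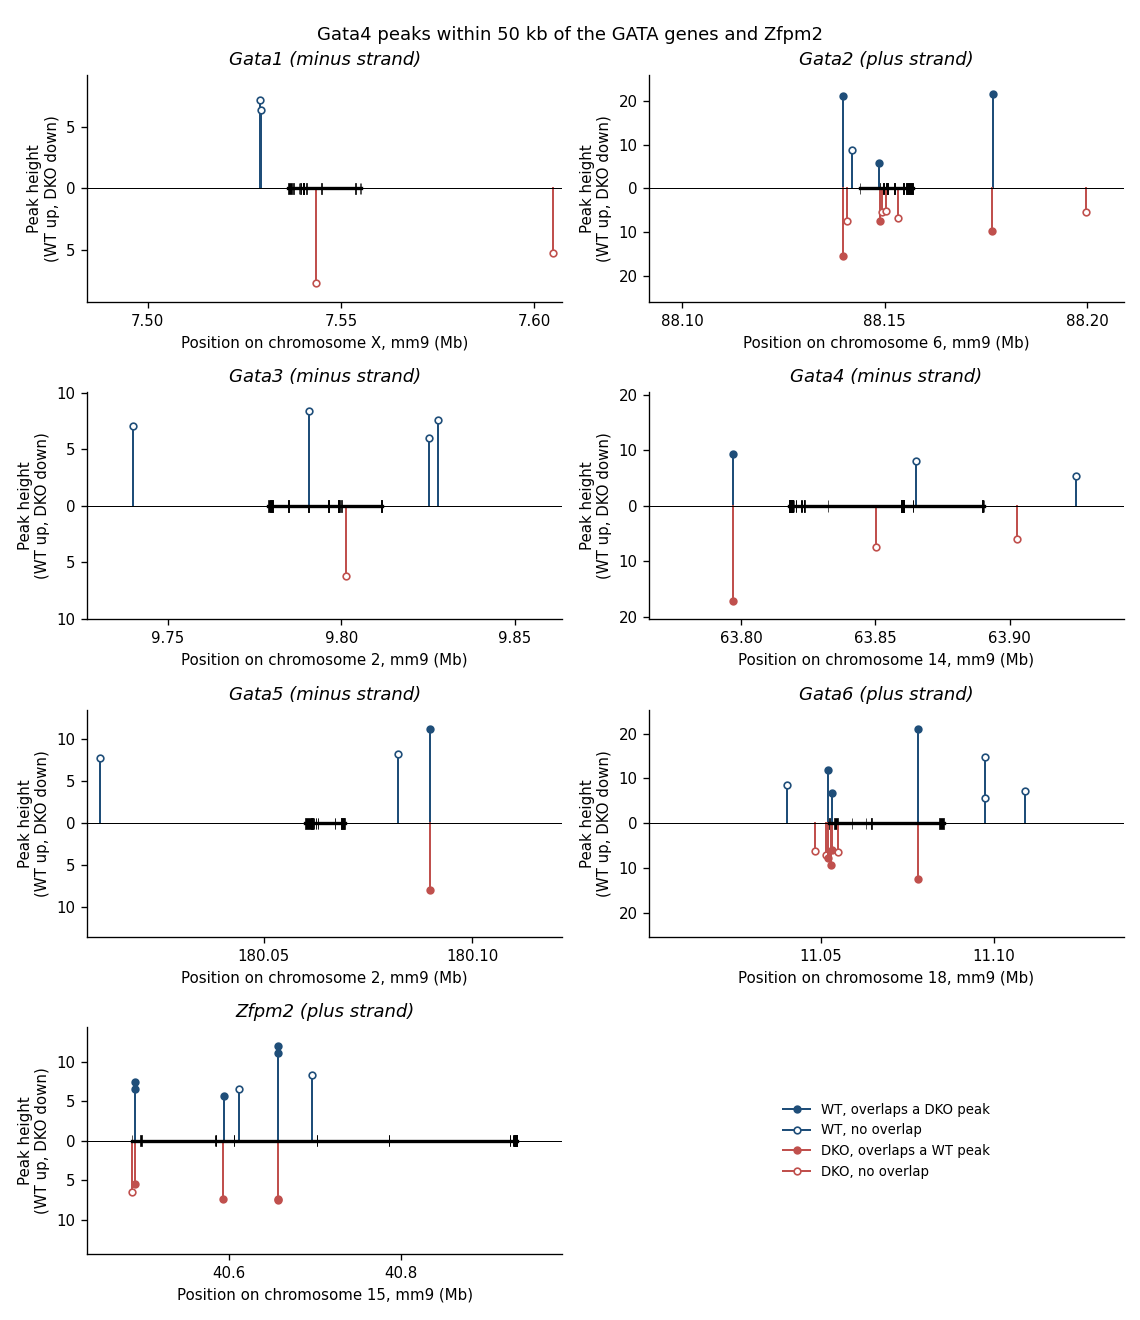
Gata4 peaks within 50 kb of the 6 GATA genes and *Zfpm2*, with the position on mm9 (Mb) on the horizontal axis and the authors' peak height on the vertical axis, WT upward and DKO downward; black bars are exons, filled points are shared peaks and open points are not, and each panel has its own scale. The highest peaks are those at *Gata2* and *Gata6*, with WT heights of 21.7 and 21.2.

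*Zfpm1*, whose product (Fog1) is the partner of Gata1 in red blood cells and megakaryocytes and also binds other GATA factors, lies on the plus strand of chromosome 8 from 124806039 to 124861146. Its 19 WT and 25 DKO peaks within 5 kb were among the highest numbers for any gene. Of all protein-coding genes, 11 had more WT peaks and 2 had more DKO peaks. The 2 genes were *Gm20388* and *Fgfr2*, whose gene models are 4434882 and 3009069 bp long, and *Gm20388* spans *Zfpm1* itself and its neighbours. Among the 5724 genes up to 2 times shorter or longer than *Zfpm1* (55108 bp), itself included, no other had as many in either list. The median was 1 peak in each list. The density of 2.92 WT and 3.84 DKO peaks per 10 kb was passed at shorter genes such as *Kdm6b* (15168 bp), with 3.58 and 6.36. No other gene had 19 WT and 25 DKO peaks, and the 3 genes with the nearest pair of counts, chosen after the values were seen, were *Dlc1* (21 and 20), *Frmd4b* (20 and 18) and *Trp73* (11 and 23). The summed height of the peaks within 5 kb was 399 in WT and 335 in DKO at *Zfpm1*, against 225 and 162 at *Dlc1*, 241 and 151 at *Frmd4b*, and 64.9 and 197 at *Trp73*. *Auts2*, a gene of 1106010 bp with 40 WT and 14 DKO peaks, had a greater sum in WT (429) and a smaller one in DKO (139).

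At the start of *Zfpm1*, where the window holds 76 CpGs and no WGATAA, the DKO list had 5 peaks within 1 kb and the WT list had 0. Upstream these were at 124805235, 124805573 and 124805785, with heights of 7.61, 13.1 and 9.04, ES heights of 1.37, 4.33 and 2.47, and ranks of 3791, 15496 and 15719. They held 27, 32 and 45 CpGs and no WGATAA, and overlapped no WT peak. In intron 1 the DKO peaks at 124806657 and 124806814 had heights of 12.2 and 13.3, ES heights of 2.93 and 2.70, ranks of 7054 and 4150, 50 and 33 CpGs, and 3 matches each. They overlapped a WT peak at 124807108, 1069 bp from the start, which had a height of 6.99, an ES height of 2.05, a rank of 18988, 25 CpGs and no match. Within 1 kb, the start was thus crowded in the DKO list and without a peak in the WT list, whose overlapping peak lay just beyond. The DKO peak nearest to the start, 254 bp upstream, lies in sequence with 10 CpGs in 121 bases, which are in capitals.
Zfpm1 DKO peak at 124805785, chr8:124805725-124805845, plus strand: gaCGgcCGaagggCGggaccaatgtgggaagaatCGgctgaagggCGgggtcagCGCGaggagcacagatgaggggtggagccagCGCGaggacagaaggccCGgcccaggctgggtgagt

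Upstream of the start the WT list had its own 2 peaks, at 124801578 and 124801807, with heights of 5.96 and 9.55, ES heights of 1.28 and 2.73, ranks of 11006 and 16585, 8 and 1 CpGs and no WGATAA.

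The first intron held a dense run of peaks up to 5 kb from the start. The WT peaks at 124807666, 124807908 and 124808065 had heights of 7.10, 24.2 and 17.7, ES heights of 1.2, 5.24 and 4.25, ranks of 6846, 3326 and 5811, 23 to 28 CpGs and 0, 1 and 1 matches. All 3 overlapped a single DKO peak, at 124807899, of height 11.1, with an ES height of 1.21, a rank of 1030, 24 CpGs and 1 match. The next peak, at 124808736 in WT and 124808743 in DKO, was among the highest of the locus, with heights of 47.9 and 24.7, ES heights of 6.36 and 2.26 and ranks of 552 and 266. It held 23 and 22 CpGs and 3 matches in each list. The WT peaks at 124809368 and 124809832 had heights of 5.19 and 10.8, ES heights of 1.37 and 3.07, ranks of 16019 and 14410, 4 and 6 CpGs and 0 and 1 matches. Both overlapped the DKO peak at 124809815, with a height of 5.55, an ES height of 1.38, a rank of 12211, 6 CpGs and 1 match. The shared peak at 124810937 in WT and 124810967 in DKO had heights of 9.76 and 5.19, ES heights of 1.76 and 0.843, ranks of 2927 and 15637, 13 CpGs and 1 match. Of the WT peaks from 124807666 to 124810937, those at 124807666 and 124809368 were lower than the overlapping DKO peak and the others higher.

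Farther into intron 1 the WT peak at 124817672 overlapped no DKO peak. Its height was 10.6, its ES height 0.814 and its rank 2341, and it held 11 CpGs, 2 WGATAA matches and the only pair of E-box and GATA motif among the WT peaks of these 8 genes. The shared peak at 124818262 in WT and 124818423 in DKO had heights of 11 and 7.04, ES heights of 3.46 and 1.73, ranks of 17078 and 17588, 6 and 7 CpGs and 1 match. The DKO peaks without a WT counterpart were at 124815035, 124819845 and 124820636, with heights of 5.26, 6.86 and 14.4, ES heights of 1.00, 1.5 and 2.79, and ranks of 14872, 5568 and 3275. They held 17, 1 and 18 CpGs and 4, 0 and 1 matches. The capitals mark WGATAA at the shared peak near the start and the whole pair, read on the minus strand, at 124817672.
Zfpm1 WT peak at 124808736, chr8:124808676-124808796, plus strand: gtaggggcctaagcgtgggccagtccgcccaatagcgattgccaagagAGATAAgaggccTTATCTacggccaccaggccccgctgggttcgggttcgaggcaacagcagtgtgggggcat
Zfpm1 WT peak at 124817672, chr8:124817612-124817732, plus strand: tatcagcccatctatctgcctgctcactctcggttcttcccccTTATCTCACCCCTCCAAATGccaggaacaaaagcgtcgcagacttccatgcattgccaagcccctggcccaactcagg

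Introns 3 and 4 held the highest peaks of the locus. The peak at 124846826 in WT and 124846810 in DKO had a height of 71.8 in WT Flk1(+) cells, which 20 of the 20410 WT peaks passed, and of 36.8 in DKO Flk1(+) cells, which 47 of the 22733 DKO peaks passed. Its ES heights were 10.6 in WT and 2.76 in DKO, its ranks 379 and 89, and each window held 4 matches, with 10 and 11 CpGs. The peak at 124845743 in WT and 124845760 in DKO had heights of 58.8 and 25.9, ES heights of 6.32 and 1.46, ranks of 258 and 32, 13 CpGs and 2 matches. The peak at 124850166 in WT and 124850188 in DKO, in intron 4, had heights of 55.0 and 19.5, ES heights of 9.40 and 0.995, ranks of 743 and 127, 15 CpGs and 2 matches. The peak at 124833415 in WT and 124833425 in DKO had heights of 24.7 and 19.5, ES heights of 5.21 and 0.992, ranks of 3107 and 124, 14 CpGs and 3 matches. In these 4 peaks the WT library had the greater height in both the mesoderm and the ES cells. The shared peak at 124838968 in WT and 124839022 in DKO had heights of 10.0 and 14.7, ES heights of 2.52 and 1.5, ranks of 12386 and 367, 10 and 12 CpGs and no match.

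The highest DKO peak of the locus had no counterpart in the WT list. It lay at 124837514 in intron 3, with a height of 41.3, which 26 DKO peaks passed, an ES height of 3.20, an enrichment of 12.9 and a rank of 74. Its window held 11 CpGs and 3 WGATAA matches, the nearest 31 bp from its position. The closest peak of the WT list, at 124838968, was 1454 bp from it and 10.0 high. As no enrichment in the lists was under 3.00, a WT signal over a high ES height could go uncalled. The WT height and ES height at 124837514 are not known here. At the WT peaks on either side, at 124833415 and 124838968, the ES heights were 5.21 and 2.52. Of the 5 DKO peaks of these genes within the best-ranked 1% of the DKO list, all at *Zfpm1*, that at 124837514 was the only one without an overlapping WT peak. No WT peak of the 8 genes was within the best-ranked 1% of the WT list. The sequences of these introns follow, with the WT position where the peak was shared.
Zfpm1 WT peak at 124833415, chr8:124833355-124833475, plus strand: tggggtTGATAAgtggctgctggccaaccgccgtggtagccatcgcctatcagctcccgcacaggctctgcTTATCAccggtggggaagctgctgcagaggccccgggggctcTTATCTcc
Zfpm1 DKO peak at 124837514, chr8:124837404-124837574, plus strand: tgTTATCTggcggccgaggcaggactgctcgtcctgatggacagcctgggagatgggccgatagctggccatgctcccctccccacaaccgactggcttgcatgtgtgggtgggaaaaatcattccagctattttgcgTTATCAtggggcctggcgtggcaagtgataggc
Zfpm1 WT peak at 124845743, chr8:124845683-124845803, plus strand: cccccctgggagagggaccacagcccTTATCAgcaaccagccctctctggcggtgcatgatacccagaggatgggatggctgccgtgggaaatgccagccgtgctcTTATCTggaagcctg
Zfpm1 WT peak at 124846826, chr8:124846766-124846886, plus strand: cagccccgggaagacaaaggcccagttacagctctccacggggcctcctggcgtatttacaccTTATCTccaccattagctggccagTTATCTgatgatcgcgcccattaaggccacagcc
Zfpm1 WT peak at 124850166, chr8:124850106-124850226, plus strand: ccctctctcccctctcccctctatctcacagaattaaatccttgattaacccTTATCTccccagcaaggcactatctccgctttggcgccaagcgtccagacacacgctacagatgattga

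The small peaks of these introns were a WT peak at 124843015 that was not shared, with a height of 5.59, an ES height of 1.67, a rank of 13163, 9 CpGs and 1 match, and a WT peak at 124850525 that overlapped the DKO peak at 124850188. The latter had a height of 6.16, an ES height of 2.04, a rank of 20289, 7 CpGs and 1 match. The DKO list had 6 more peaks from 124847357 to the end of the gene, none shared, at 124847357, 124853631, 124854478, 124855066, 124857080 and 124860626. Their heights were 7.23, 5.27, 6.10, 5.07, 5.32 and 12.6, and their ES heights 2.36, 1.69, 1.55, 0.944, 1.44 and 3.66. They ranked 21120, 22563, 8610, 17035, 14257 and 11294, and held 4, 20, 7, 9, 2 and 57 CpGs and 1, 1, 2, 0, 1 and 0 matches. The highest of the 6 lay in coding exon 10, and its CpG-rich window held no WGATAA. Past 124850525, peaks within the gene were found in the DKO list alone.

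Beyond 5 kb, 3 WT peaks downstream of *Zfpm1* were shared. The peak at 124873685 in WT and 124873710 in DKO, 12539 and 12564 bp downstream of the gene, had heights of 33.3 and 11.7, ES heights of 2.62 and 0.575, ranks of 360 and 822, 9 and 10 CpGs and 1 match. The authors' enrichment was 12.7 in WT and 11.7 in DKO, where the ES height of 0.575 is counted as 1, and the DKO height over the ES height itself was 20.3. The WT peak at 124892527 had a height of 16.5, an ES height of 3.77, a rank of 5749, 14 CpGs and 1 match, and overlapped DKO peaks at 124892582 and 124892764 with heights of 5.20 and 6.70, ES heights of 1.5 and 0.95, ranks of 15460 and 6075, 12 and 13 CpGs and 1 match each. The peak at 124900464 in WT and 124900613 in DKO, at the start of *Zc3h18*, had heights of 16.0 and 16.6, ES heights of 2.90 and 5.25, ranks of 3968 and 9429, 56 and 74 CpGs and no match. The other peaks within 50 kb were a WT peak with a height of 7.21 and DKO peaks at 124797286 and 124884504 with heights of 5.30 and 5.54.
Zfpm1 WT peak at 124873685, chr8:124873625-124873745, plus strand: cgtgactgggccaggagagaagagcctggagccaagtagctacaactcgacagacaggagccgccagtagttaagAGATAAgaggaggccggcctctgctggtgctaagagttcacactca

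**Figure D2:**
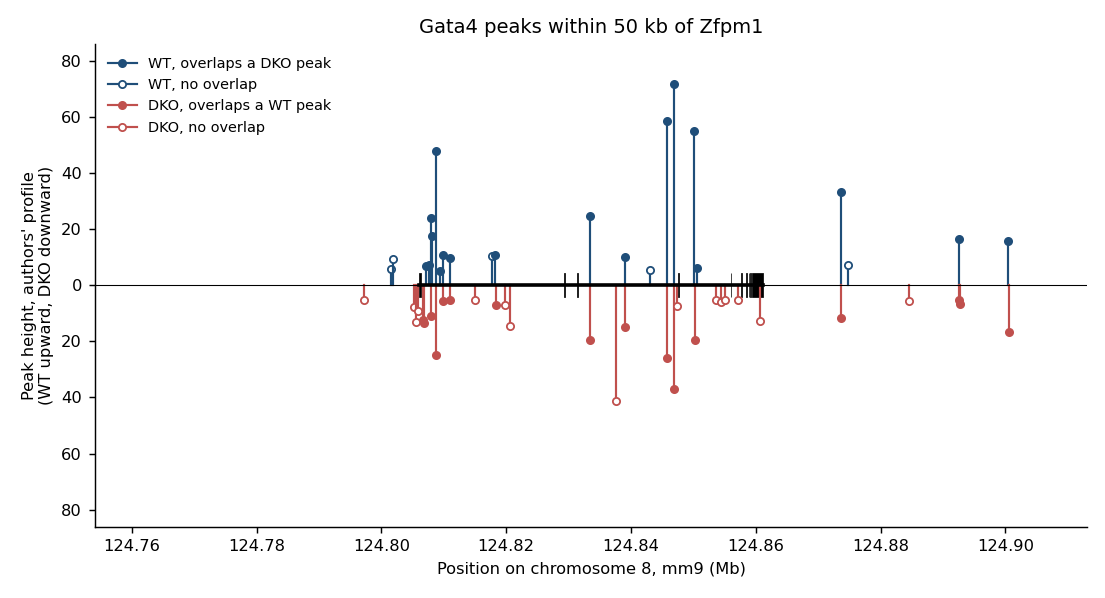
Gata4 peaks within 50 kb of *Zfpm1*, with the position on chromosome 8 of mm9 (Mb) on the horizontal axis and the authors' peak height on the vertical axis, WT upward and DKO downward; black bars are exons, filled points are shared peaks and open points are not. The highest WT peak (71.8) has a DKO counterpart (36.8), and the highest DKO peak (41.3) has no counterpart in the WT list, where the signal at that place is not known.

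*Zfpm2*, whose product (Fog2) works with Gata4 in heart and gonad, is a long gene on the plus strand of chromosome 15 from 40486588 to 40936138. Its 7 WT and 5 DKO peaks all lay within 5 kb of the gene. Of 738 genes up to 2 times shorter or longer (*Zfpm2*, itself included, spans 449551 bp), 64 had more WT peaks and 81 more DKO peaks. In intron 1, both lists had a peak at 40489953 (WT) and 40489951 (DKO), with heights of 7.47 and 5.49, ES heights of 1.13 and 0.127 and ranks of 5964 and 12746. Each window held 7 CpGs and 7 WGATAA matches, and 7 or more occurred in 22 of all WT windows (0.108%) and 20 of all DKO windows (0.088%). The next WT peak, at 40490304, overlapped the same DKO peak and had a height of 6.60, an ES height of 0.372, a rank of 8328, 1 CpG and 4 matches. The highest WT peak of the gene was shared and lay in intron 3 at 40656563, with the DKO peak at 40656584. Its heights were 12 and 7.42, its ES heights 0.710 and 0.234 and its ranks 1656 and 4175, with 8 and 9 CpGs and 5 matches. Beside it, the peak at 40656981 in WT and 40656932 in DKO, where it was the highest DKO peak of the gene, had heights of 11.1 and 7.52, ES heights of 0.993 and 0.265, ranks of 2024 and 3949, 12 CpGs and 2 matches. At both peaks the heights were higher in WT, and the ES heights were low in both genotypes.

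The shared peak in intron 2, at 40593424 in WT and 40593371 in DKO, had heights of 5.67 and 7.36, ES heights of 1.14 and 0.446, ranks of 12607 and 4303, 7 and 6 CpGs and 2 matches. The WT peaks at 40611508 and 40696076, which were not shared, had heights of 6.55 and 8.32, ES heights of 0.519 and 1.46, ranks of 8504 and 4418, 5 and 6 CpGs and 4 and 1 matches. The 7 WT windows of *Zfpm2* include overlapping ones, at 40489953 and 40490304 and at 40656563 and 40656981, which an exact interval does not take into account. All 7 held WGATAA, which is 100.0% (exact interval from 59.0%). The exception in the DKO list was the peak that overlapped no WT peak, at 40486477, 111 bp upstream of the start. It had a height of 6.49, an ES height of 1.45, a rank of 6804, 44 CpGs and no match. As at *Zfpm1*, the DKO peak nearest the start lay in CpG-rich sequence, and the nearest WT peak was 3365 bp from that start.

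Over the 8 genes, WGATAA occurred in 38 of 53 WT peaks within 50 kb, which is 71.7% (exact interval 57.7% to 83.2%), and in 38 of 58 DKO peaks, which is 65.5% (51.9% to 77.5%). The shares over the whole lists were 61.9% (WT) and 38.1% (DKO). Some neighbouring windows of a list overlap, such as those of the DKO peaks at 124806657 and 124806814 of *Zfpm1*, so the peaks are not independent and the intervals do not cover this. Without *Zfpm1* the shares were 73.3% (54.1% to 87.7%) in WT and 63.0% (42.4% to 80.6%) in DKO. The peaks of a gene share their library and the genes were chosen by name, so these shares describe the loci and no more. The median window held 9 CpGs in WT and 13.5 in DKO, against 8 and 21 in the whole lists, and without *Zfpm1* the medians were 7.5 and 19. Shared were 31 of 53 WT peaks, or 58.5% (44.1% to 71.9%), and 29 of 58 DKO peaks, or 50% (36.6% to 63.4%). The shared parts of the whole lists, 45.6% in WT and 45.1% in DKO, lie within these intervals. At *Zfpm1* 18 of 23 WT peaks were shared, or 78.3% (56.3% to 92.5%), and 16 of 31 DKO peaks, or 51.6% (33.1% to 69.9%). The nearest DKO peaks of these 18 were 14 distinct ones, so some WT peaks were counted for the same DKO peak. At the GATA genes 8 of 23 WT peaks were shared, or 34.8% (16.4% to 57.3%), and 9 of 22 DKO peaks, or 40.9% (20.7% to 63.6%). The WT contrast was smaller within 5 kb, where 15 of 19 peaks of *Zfpm1* were shared, or 78.9% (54.4% to 93.9%), and 5 of 8 of the GATA genes, or 62.5% (24.5% to 91.5%).

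Heights at the shared peaks were set side by side for the 31 WT peaks and the nearest overlapping DKO peaks, of which 26 were distinct. The height was higher in WT at 22 of the 31, and the median ratio of DKO to WT height was 0.676. Over all 9305 shared WT peaks the height was higher in WT at 69.3% and the median ratio was 0.823. The direction depended on the quantity. The authors' enrichment, in which an ES height under 1 is counted as 1, was higher in DKO at 22 of the 31. Over all shared WT peaks it was higher in DKO at 56.3%. The median ratio of DKO to WT was 1.345 at the 31, against 1.06 over all shared peaks. Of the 9 peaks with the higher enrichment in WT, 6 had a DKO ES height under 1, so that their DKO enrichment is the DKO height itself. With the ES heights as they stand, the ratio of Flk1(+) to ES height was higher in DKO at 28 of the 31. Over all shared WT peaks this ratio was higher in DKO at 60.8%. The median ratio of DKO to WT was 1.69 at the 31, against 1.11 over all shared peaks. The size of this shift was thus set in part by the floor under the ES height, and its direction was not. The ES height was higher in WT at 26 of the 31, against 74.0% of all shared WT peaks. Its medians were 2.62 in WT and 1.36 in DKO, against 2.10 and 1.53 over all shared peaks. At *Zfpm1* the median ratio of heights was 0.578, the median ratio of enrichments 1.49, and the median ES height 3.27 in WT and 1.39 in DKO. The pairs of the other genes came from *Gata2*, *Gata4*, *Gata5*, *Gata6* and *Zfpm2*, as *Gata1* and *Gata3* had no shared peak. The median ratios of these pairs were 0.735 and 1.09, with median ES heights of 1.87 and 1.01. Of these 13 pairs, 6 had a DKO ES height under 1. Without the floor the median ratio of enrichments was 1.56 at *Zfpm1* and 1.87 at the other genes, so that their order turned. Over the 176 shared WT peaks of the whole list with a height of at least 40, the median ratio of heights was 0.461 and that of enrichments 1.02, with median ES heights of 6.01 and 2.32. A choice by WT height favours a low ratio of heights, and over the 32 shared WT peaks whose DKO peak was at least 40 high, the median ratios were 1.06 and 1.60. The study's methods state more mapped reads for the DKO Flk1(+) than for the WT Flk1(+) library, and whether the heights are scaled for depth is not known here, so neither ratio shows whether more Gata4 was bound in one genotype.

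Values of the whole of chromosome 8, on which *Zfpm1* lies, were set beside those of the gene. WT peaks on it had a median height of 9.01 and a median ES height of 1.98, against 7.68 and 1.66 on the other chromosomes. DKO peaks on it had a median height of 7.03 and a median ES height of 1.62, against 6.90 and 1.58. It carried 6.69% of the WT peaks and 9.27% of the DKO peaks, where chromosome 2, with *Gata3* and *Gata5*, carried 7.76% and 7.42%. The part of these values in the heights and numbers of peaks at *Zfpm1* was not tested. The *Zfpm1* peak with the highest WT ES height, 10.6, passed 99.8% of the ES heights in the WT list.

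**Figure D3:**
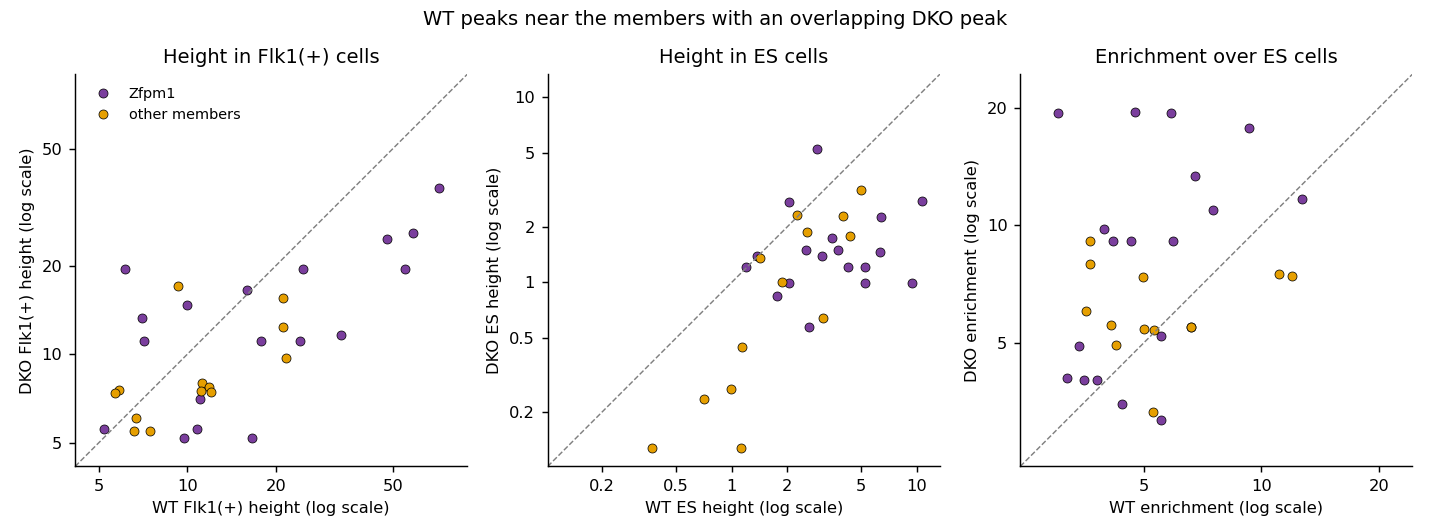
Each point is 1 of the 31 WT peaks within 50 kb of the 8 genes that overlap a DKO peak, with the WT value on the horizontal and the DKO value on the vertical axis (log scales, authors' profile heights and their ratio), purple for *Zfpm1* and orange for the other genes, and the dashed line marks equal values. Heights in Flk1(+) cells lie under the line at 22 peaks and in ES cells at 26, while the authors' enrichments, with ES heights under 1 counted as 1, lie over it at 22.

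Genes of proteins that work with GATA factors or Zfpm proteins were taken as a list of 31: LIM and basic helix-loop-helix partners, blood and cardiac partners, Smad proteins, coactivators, other genes with GATA-type zinc fingers, and corepressors. A WT peak lay within 5 kb of 25 of the 31 and a DKO peak of 25 of the 31, which is 80.6% in each list, beside 39.4% and 49.1% of all protein-coding genes. The list was chosen with earlier results of these data known, so these shares describe the listed genes and are no test of an excess. Both lists had a peak at 23 genes, the WT list alone at 2, the DKO list alone at 2 and neither at 4. The share of all protein-coding genes with a peak in a single list alone is not given here. The numbers for a single list are therefore a description of these genes only. The median was 1 WT and 2 DKO peaks, against 0 and 0 over all genes. Neither these medians nor the counts that follow were matched for gene length. The length was 224600 bp for *Runx1*, 119182 bp for *Fli1*, 89311 bp for *Gatad2a* and 61124 bp for *Smad1*. It was 15330 bp for *Tal1*, 9324 bp for *Srf* and 3259 bp for *Lyl1*. The genes with most WT peaks were *Runx1* (11), a regulator of blood stem cell formation, *Smad1* (7), a transducer of BMP signals, and *Tal1*, *Srf* and *Gatad2a* (3 each). Those with most DKO peaks were *Smad1* (9), *Gatad2a* (7), *Runx1* (5) and *Fli1* (5), and of the genes with 3, *Lyl1* had the highest peak. Of these, *Smad1*, *Gatad2a* and *Lyl1* lie on chromosome 8, as *Zfpm1* does, and the part of the chromosome in their numbers was not tested. At *Lyl1*, a basic helix-loop-helix factor related to Tal1, a peak on chromosome 8 at 87225553 in WT and 87225568 in DKO had heights of 62.6 and 64.5. The highest peaks of *Runx1* had heights of 32.2 in WT and 11.5 in DKO, at 92715976 and 92715983, and those of *Smad1* 42.4 and 17.6, at 81907031 and 81907012. The highest peaks of *Tal1* reached 14.7 and 9.39, of *Srf* 12.5 and 8.35, of *Gatad2a* 23.4 and 24.7, and of *Fli1* 8.33 and 8.86. *Runx1* and *Smad1* were higher in WT by height, as at the tall shared *Zfpm1* peaks, while *Lyl1* and *Gatad2a* had nearly the same height in both lists. The genes with peaks in the WT list alone were *Lmo2* (1 peak) and *Nr2f2* (1), and those with peaks in the DKO list alone were *Tcf3* (1) and *Ctbp2* (3). These hold for the distance of 5 kb. Within 20 kb *Tcf3* had 3 WT and 4 DKO peaks, while *Lmo2* and *Nr2f2* each had 1 and 0, and *Ctbp2* had 0 and 3.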

How the data were processed

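Gata4 ChIP-seq peak lists of 2 Flk1(+) libraries, each called by the authors with DNAnexus tools against the ES library of its genotype, were analysed. The submitters' processing notes name CASAVA 1.8.1, cutadapt and mm9, and the aligner is not given in the sources used here. The authors deposited for each peak a signal (the profile height in the Flk1(+) and in the ES library), the ratio of these heights with an ES height under 1 taken as 1, the −log10 of a q-value, and a rank, used here as a score. The names of the 2 deposited lists give the cell type and genotype, while no column within them names a library. The peak total of each list equals the one that the study's methods state for that genotype. Every deposited sequence window was found equal to the mm9 reference around its position. Genes and transcripts came from GENCODE vM1 on that build, with the longest entry of a repeated symbol. *Gm20388*, a gene model that spans *Zfpm1* and its neighbours, was not counted as a nearest gene, a choice made after seeing the data. The genes and the list of partners were chosen with earlier results of these data known. By rule, every peak within 5 kb of a member, every shared peak within 50 kb and the highest peak of each list were named, then the 5 partner genes with most peaks in each list (a tie for the last DKO place was broken by height, and the genes with peaks in 1 list alone were added, both after values were seen), and the genes most like *Zfpm1*. Overlap, motif and gene counts were tested on simulated data. Alternatives were other distances, overlaps, motifs and windows, the best-ranked 50% of each list, and leaving out *Zfpm1*. The reads and the direct peak call between genotypes were not used here. Python 3.11.15, NumPy 2.4.6, pandas 2.3.3, SciPy 1.17.1, pysam 0.24.0 and Matplotlib 3.10.9 were used.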

Additional observations from a re-analysis of the deposited data

How the results depend on the processing

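Of 52 alternative values for 13 results, 36 stayed within 1.5 times a count, median or ratio or within the exact interval of a share, 14 moved further and 2 changed direction. In the best-ranked 50% of each list, the peaks within 50 kb numbered 30 in WT and 34 in DKO, the shared ones 16 and 14, and the WT share with WGATAA was 83.3%. Without *Zfpm1*, an alternative chosen after seeing the data, the peaks numbered 30 and 27 and the shared ones 13 and 13. With *Gm20388* counted as a nearest gene, also chosen after seeing the data, 21 WT and 22 DKO peaks had a member as their nearest gene, since it spans *Zfpm1*; without it these were 40 and 47. With WGATAR as the motif the WT share was 84.9%. The shares over all WT windows with WGATAR, or over the best-ranked 50% of the WT list, are not given here. The values of 84.9% and 83.3% therefore describe these peaks only. In the central 200 bp the median was 4.0 CpGs in WT and 7.5 in DKO, in a shorter window. The median ratio of DKO to WT height turned from 0.676 to 1.345 with enrichments in place of heights, and to 1.69 without the authors' floor of 1 under the ES height, an alternative added after seeing the data; the ES heights beside it were lower in DKO, and the cause was not tested.

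No paired analysis was possible because each condition had 1 library. A peak missing from a list may lie under a threshold of the authors, as no height in the lists was under 5.00 and no enrichment under 3.00. Over a high ES height, such a missing signal need not be low. Small members, with 1 to 3 peaks, allow no statement on a share. The partner list within 20 kb, added after seeing the data, gave 27 genes in WT and 26 in DKO.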

Other observations

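Within the 50-kb reach of the members, several peaks lay nearest to another gene. At *Zc3h18*, which codes for a zinc finger protein of RNA processing and lies downstream of *Zfpm1*, the peaks at the start had nearly equal heights (16.0 in WT and 16.6 in DKO), with CpG-rich windows and no WGATAA, while the ES height was lower in WT (2.90) than in DKO (5.25), opposite to the tall intronic *Zfpm1* peaks. At *Fdft1*, next to *Gata4*, the DKO peak had a height of 17.1 and lay 229 bp from the gene, and the WT peak had a height of 9.33 and lay 422 bp from it. The DKO peak ranked 738 and the WT peak 15669.

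Both WT peaks near *Gata1* lay 4051 and 4303 bp from *Hdac6*, a deacetylase gene, and the DKO list had no peak within 50 kb there other than those given for *Gata1*. Near *Gata3*, 2 WT peaks lay nearest to *Taf3*, 10847 and 8398 bp from it, with heights of 6.01 and 7.57 and no DKO counterpart. Near *Gata5*, the WT peak at 180010838 lay 1513 bp from *BC066135* and held 12 CpGs and no WGATAA.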
